A study of Homo sapiens with 8 samples.

Results

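Largazole at 20 nM was compared with SAHA at 2 µM after 10 h in HCT116, an established human colorectal carcinoma cell line. The comparison rests on 4 of the 8 expression arrays of the series, 2 from cells given largazole and 2 from cells given SAHA, chosen by their treatment labels. The other 4 arrays came from cells given FK228 at 20 nM and from cells given vehicle, 2 of each, also collected at 10 h. The labels call the experiment a duplicate and do not say whether the duplicates were separate cultures, so a p-value here stands only for the spread among these arrays, which may be technical. The doses of the compounds differ, so each difference below is between these treatments and not between the compounds at a matched dose. The cells are one line with no other genotype, and no dose series or second time was analysed here.

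Histone deacetylases remove acetyl groups from lysines of histones and of other proteins, and most of them hold a zinc ion in the active site. Largazole is a cyclic depsipeptide thioester, a prodrug from a marine cyanobacterium whose freed thiol binds that zinc. FK228, or romidepsin, is a bicyclic depsipeptide whose disulfide is reduced to a thiol of the same kind. SAHA, or vorinostat, is a linear hydroxamic acid that binds the zinc through its hydroxamate. Depsipeptides of this kind act most strongly on the class I enzymes, while SAHA acts more broadly. In colorectal carcinoma cells such inhibitors are known to raise the cyclin-dependent kinase inhibitor gene CDKN1A and to slow proliferation.

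The arrays gave log2 levels for 54613 probe sets, of which 28985 passed the filter on low values. Of these, 24585 carried exactly 1 gene symbol, and they stood for 13381 genes, each represented by its probe set with the highest mean. The median level per array lay between 4.47 and 4.51, and no array stood apart in scale. The table holds no detection calls, so a level under 4.49, the median of all values, is called dim here, and a difference from a dim level is given as measured, without a known floor. Epithelial markers matched the label: EPCAM averaged 12.42 with largazole and 12.34 with SAHA, and KRT18 averaged 12.84 with largazole and 12.89 with SAHA. However, 3 of the 12 epithelial and colon markers (CDH17, GPA33 and LGALS4) did not pass the filter. CDX2, at 5.04 with largazole, 4.95 with SAHA and 5.85 with vehicle, and VIL1, at 4.58 with largazole and 4.68 with SAHA, were not far above dim. The leukocyte marker PTPRC was low, at 2.62 with largazole and 2.65 with SAHA, and 8 of the 10 leukocyte markers on the arrays did not pass the filter. The other two were ITGAM, at 5.24 with largazole and 5.13 with SAHA, and CSF1R, at 5.01 with largazole and 4.97 with SAHA. The mean level of all 14 fibroblast and endothelial markers lay between 4.32 and 4.37 with largazole, 4.19 and 4.30 with SAHA, and 4.23 and 4.26 with vehicle. Of these markers 7 passed the filter, and COL1A1 was the highest, at 8.40 with largazole and 7.85 with SAHA. PECAM1, PDGFRB, THY1, CLDN5, VWF and DCN also passed, with means between 4.59 and 5.30 with either compound. The number of arrays limits the precision: a gene's 95% interval reached a median of 0.24 log2 units to each side of its difference.

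The responses to largazole and to SAHA were close for most genes tested, and the 3 genes called different were higher with largazole. These calls did not hold with the replicate number as a block. Of the 11 probe sets called different, 1 was lower with largazole, and other settings called genes in both directions. KISS1R, which encodes the kisspeptin receptor, TNFAIP2, a tumour necrosis factor-induced gene linked to membrane protrusions, and PABPN1, the nuclear poly(A)-binding protein, were the 3 genes called different, at 2.04-, 1.90- and 1.84-fold higher levels with largazole. They make up 0.0224% of the 13381 genes tested (limma, Benjamini-Hochberg adjusted p under 0.05, adjusted over all tested probe sets). All 3 were higher, again 0.0224%, and 0 genes (0%) were lower. At an unadjusted p under 0.05, 903 genes were higher and 469 were lower. In bulk RNA, a lower level in each cell and fewer expressing cells cannot be told apart.

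Likeness was tested as a bound, since a p that misses the threshold does not show that levels are alike. A gene was called within 1.5-fold when a pair of one-sided moderated tests placed its difference inside ±0.585 log2 units at an adjusted p under 0.05. By this rule 12548 genes, or 93.8%, were called within 1.5-fold between the largazole and SAHA arrays. The 95% interval of the difference lay wholly within 1.5-fold for 12020 genes, or 89.8%, and wholly within 2-fold for 13304 genes, or 99.4%. No interval reached past 4-fold in either direction. A bound of ±0.32 log2 units could be called for 0 genes with these arrays, although 5163 intervals, or 38.6%, lay inside it. Between the calls, 830 genes, or 6.20%, were placed neither within 1.5-fold nor as different.

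The typical gene differed between the treatments by a median of 0.095 log2 units, a 1.07-fold difference in either direction. The difference was at most 0.26 log2 units for 90% of genes, and at most 0.52, or 1.43-fold, for 99% of them. The change from vehicle was larger, with a median size of 0.27 log2 units for largazole and 0.29 for SAHA. At least 2-fold changes from vehicle that passed the test numbered 1220 genes with largazole and 1327 with SAHA. Changes of at least 4-fold numbered 160 with largazole and 182 with SAHA. Of all genes tested, 45.2% were called changed by largazole against vehicle and 47.4% by SAHA against vehicle. These comparisons share the vehicle arrays, so no overlap between them is given.

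Array by array, the median distance between a largazole and a SAHA array was near or above that of replicates of 1 treatment. Over the 13381 genes, the 4 pairs of a largazole and a SAHA array had median absolute differences of 0.107, 0.116, 0.126 and 0.138 log2 units. The pair of largazole arrays stood at 0.0897 and the pair of SAHA arrays at 0.119. Largazole arrays lay 0.284 to 0.302 from vehicle arrays, and SAHA arrays lay 0.302 to 0.320 from them. Levels differed at least 2-fold for 8 to 16 genes in a pair of a largazole and a SAHA array, against 1235 to 1283 genes in a pair of a largazole and a vehicle array and 1354 to 1445 in a pair of a SAHA and a vehicle array. Between replicates, that number was lower within largazole, at 2 genes, and within SAHA, at 1. It was 10 within FK228 and 3 within vehicle.

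KISS1R had levels of 8.43 and 8.55 on the largazole arrays, against 7.36 and 7.57 on the SAHA arrays. The vehicle arrays, at 7.96 and 8.08, lay between them without overlap, and the FK228 arrays were at 8.66 and 8.56. The difference was 1.03 log2 units, with a 95% interval of 0.78 to 1.27 and an adjusted p of 0.0386. KISS1R was the one called gene that moved in opposite directions against vehicle: it was 0.47 higher with largazole (adjusted p = 0.00843) and fell by 0.56 with SAHA (adjusted p = 0.0035), both on the log2 scale by limma.

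TNFAIP2 was at 7.03 and 7.05 with largazole, against 6.10 and 6.13 with SAHA. Vehicle arrays, at 6.85 and 7.04, lay beside the largazole arrays, and FK228 arrays were at 6.51 and 6.64. The difference was 0.93 log2 units (95% interval 0.71 to 1.15, adjusted p = 0.0386). Against vehicle, the 95% interval of largazole was -0.13 to 0.31, while SAHA fell by 0.83 (limma adjusted p = 0.000309).

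PABPN1 was at 6.01 on both largazole arrays, against 5.07 and 5.18 on the SAHA arrays. The vehicle arrays were at 6.06 and 5.97, beside the largazole arrays, and the FK228 arrays were at 5.13 and 5.06, beside the SAHA arrays. The difference was 0.88 log2 units (95% interval 0.69 to 1.08, adjusted p = 0.0356). Against vehicle, the 95% interval of largazole was -0.20 to 0.19, while SAHA fell by 0.89 (limma adjusted p = 0.000132). Each of the 3 genes had 1 probe set that passed the filter and carried only its symbol. None of the 3 calls, nor any other gene's, held when any 1 of the 8 arrays was left out or with the replicate number as a block, although over those and the other settings the differences stayed between 0.92 and 1.13 for KISS1R, 0.91 and 0.94 for TNFAIP2 and 0.83 and 0.94 for PABPN1.

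The promoters of TNFAIP2 and PABPN1 are shown because these genes were called different, and those of CDKN1A and DHRS2 because these genes rose alike with both compounds. The sequences are the 250 bases before the transcription start from RefSeq on GRCh38.p14, on the plus strand, at chr14:103123211-103123460 for TNFAIP2, chr14:23321207-23321456 for PABPN1, chr6:36678464-36678713 for CDKN1A and chr14:23629865-23630114 for DHRS2. Capitals mark the GC box, GGGCGG or CCGCCC on the other strand, and the TATA box, TATAAA or TTTATA on the other strand, with overlapping GC boxes counted each.
TNFAIP2: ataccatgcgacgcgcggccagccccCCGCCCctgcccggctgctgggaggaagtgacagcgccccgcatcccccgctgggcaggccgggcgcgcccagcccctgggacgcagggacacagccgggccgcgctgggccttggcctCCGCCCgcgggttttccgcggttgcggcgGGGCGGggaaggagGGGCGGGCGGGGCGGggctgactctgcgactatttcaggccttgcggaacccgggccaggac
PABPN1: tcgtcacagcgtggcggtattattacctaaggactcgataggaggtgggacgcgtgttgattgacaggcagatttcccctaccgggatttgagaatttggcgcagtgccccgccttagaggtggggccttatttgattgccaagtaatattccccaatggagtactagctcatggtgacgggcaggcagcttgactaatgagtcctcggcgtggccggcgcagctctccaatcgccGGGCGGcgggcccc
CDKN1A: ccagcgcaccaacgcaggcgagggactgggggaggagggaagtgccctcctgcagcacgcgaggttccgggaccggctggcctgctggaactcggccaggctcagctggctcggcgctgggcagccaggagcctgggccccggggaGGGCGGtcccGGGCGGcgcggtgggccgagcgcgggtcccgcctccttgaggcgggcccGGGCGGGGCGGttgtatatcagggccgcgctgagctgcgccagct
DHRS2: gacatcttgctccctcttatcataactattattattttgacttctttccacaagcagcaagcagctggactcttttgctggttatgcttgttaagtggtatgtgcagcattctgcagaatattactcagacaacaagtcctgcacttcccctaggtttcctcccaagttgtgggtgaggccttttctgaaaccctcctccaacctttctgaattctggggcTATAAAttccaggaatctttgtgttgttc
The TNFAIP2 window holds 6 GC boxes, the PABPN1 window 1, the CDKN1A window 4 and the DHRS2 window 0 with 1 TATA box. Of 35097 windows of the same length in the table, 42.6% held a GC box and 10.7% a TATA box. A match is a description of the letters and not a site or a cause. PABPN1 has 2 starts in the table, and the window of the first is shown.

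**Figure D1:**
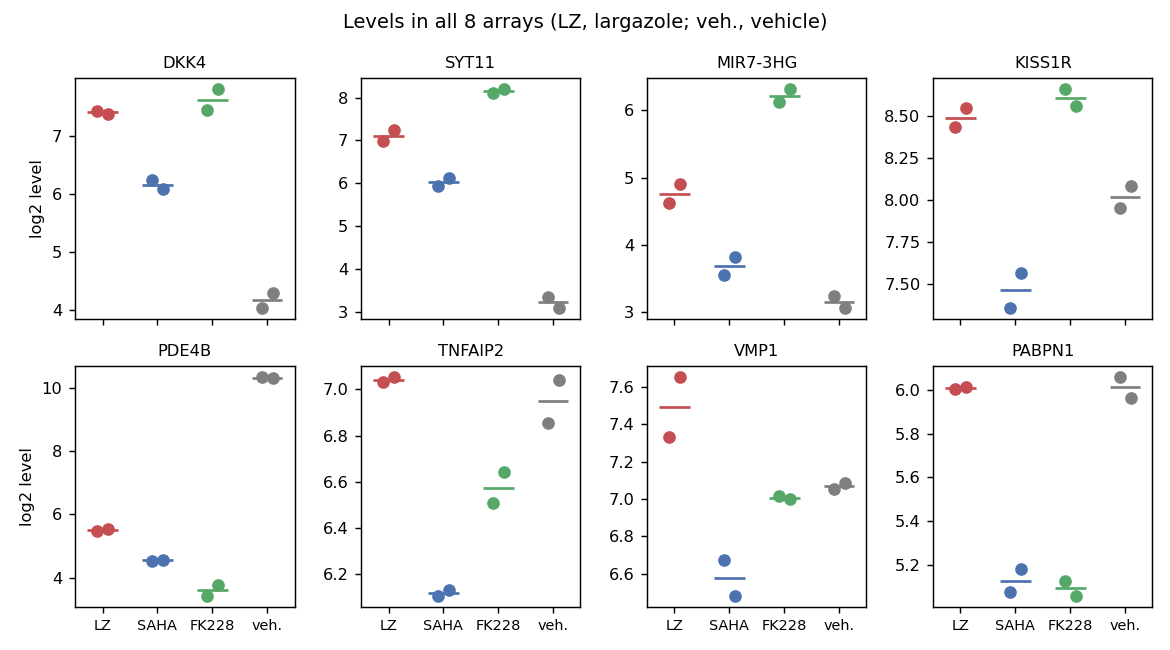
Log2 level on each of the 8 arrays for the 8 genes whose 95% interval of largazole minus SAHA lies beyond 1.5-fold, with 1 point per array, a line at each group mean and an axis of its own for each gene. The genes were chosen for a large difference, so that both largazole arrays lie above both SAHA arrays in each is no separate support. The vehicle arrays lie below both treatments (DKK4, SYT11 and, at dim levels also with SAHA, MIR7-3HG), above both (PDE4B), between them (KISS1R, VMP1) or beside the largazole arrays (TNFAIP2, PABPN1).

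The other 5 genes with intervals beyond 1.5-fold were not called different, with adjusted p between 0.0534 and 0.0572. Of these, DKK4, MIR7-3HG and VMP1 are named because their values stood out once seen. DKK4, a secreted inhibitor of Wnt signalling, was at 7.42 and 7.38 with largazole, against 6.24 and 6.08 with SAHA and a vehicle mean of 4.17. Its difference of 1.24 log2 units (95% interval 0.92 to 1.57) was the largest of any gene tested. SYT11, of the synaptotagmin family of vesicle trafficking proteins, was at 6.99 and 7.24 with largazole, against 5.93 and 6.12 with SAHA and a vehicle mean of 3.22. Both compounds thus lay well above vehicle for these genes, with the largazole arrays the higher and no overlap.

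MIR7-3HG, the host transcript of a miR-7 precursor, was at 4.62 and 4.90 with largazole, against 3.55 and 3.82 with SAHA and 3.15 on average with vehicle, so its SAHA and vehicle levels were dim and their order is not read. VMP1, a membrane protein needed for autophagosome formation, was at 7.33 and 7.65 with largazole, against 6.67 and 6.48 with SAHA, with vehicle between at 7.05 and 7.09. PDE4B, a phosphodiesterase that degrades cAMP, was at 5.47 and 5.53 with largazole, against 4.54 and 4.56 with SAHA and 10.34 on average with vehicle. PDE4B was therefore far below vehicle with both compounds, and the SAHA arrays were the lower. Its other probe set did not share the direction: averaged over both probe sets, the PDE4B difference was 0.31 log2 units, against 0.95 for the probe set used.

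At a bound of ±0.32 log2 units, 52 intervals lay wholly outside, 48 of them higher with largazole and 4 lower. The 4 lower genes were named after their values were seen. ZNF480, a zinc finger gene, was at 3.85 and 3.91 with largazole, against 4.73 and 4.65 with SAHA, so its largazole level was dim. LYST, the lysosomal trafficking regulator, was at 6.41 and 6.45 with largazole, against 7.19 and 7.16 with SAHA. CFAP184, a cilium and flagellum-associated gene, was at 5.20 and 5.29, against 5.97 and 5.90. In these 3 genes both treatments lay above the vehicle mean, which was 3.41, 5.64 and 4.48 in that order. HIRA, a chaperone for a replacement histone, was at 9.75 and 9.67 with largazole, against 10.29 and 10.25 with SAHA and 10.21 on average with vehicle. None of the 4 was called different, with adjusted p from 0.0571 to 0.104.

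Counted over probe sets, 11 of 28985 were called different, or 0.038%, with 10 higher with largazole (0.0345%) and 1 lower (0.00345%). Of these, 3 were the probe sets of KISS1R, TNFAIP2 and PABPN1. A further 4 carried several gene symbols and are given by their identifiers only: 200799_at differed by 1.70 log2 units, 227062_at by 1.53, 234989_at by 1.48 and 225239_at by 1.24. Probe set 200799_at was at 5.39 and 5.62 with largazole, against dim levels of 3.87 and 3.74 with SAHA, with vehicle at 4.57 and 4.39. The others were not dim with either compound. Probe set 227062_at was at 6.95 and 6.77 with largazole, against 5.25 and 5.40 with SAHA, and 234989_at at 8.25 and 8.07, against 6.78 and 6.57. Probe set 225239_at was at 10.07 and 10.14, against 8.94 and 8.80. In these, the FK228 arrays lay near the largazole arrays and the vehicle arrays lay lowest. The remaining 4 belonged to genes that another, brighter probe set represented. CD24, a cell surface glycoprotein gene, differed alike on both measures, by 0.79 on the called probe set and by 0.75 on its representative. For TGIF1, a homeobox repressor, they gave 1.03 and 0.32, and for HNRNPA1, a splicing regulator, 0.94 and 0.36. For SCYL2, a gene of vesicle traffic, the called probe set was 0.997 lower and the representative 0.058 lower with largazole, so probe sets of 1 gene did not always share the size of a difference. Within 1.5-fold were 26243 probe sets, or 90.5%.

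The share of genes called within 1.5-fold depended on the signal. When genes were split into 3 equal bins by their mean level, 86.6% were called within 1.5-fold in the dimmest, 95.7% in the middle and 98.97% in the brightest bin. The 830 genes with no call had a median level of 5.46 and a median interval of ±0.39 log2 units, against 7.71 and ±0.24 for the genes called within the bound. The largazole arrays and the SAHA arrays did not overlap for 5765 genes, or 43.1% of all tested, 3284 of them higher with largazole and 2481 lower.

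To ask how alike the treatments were where deacetylase inhibition changes expression, responsive genes were chosen on the FK228 and vehicle arrays, which do not enter the difference between largazole and SAHA. FK228 changed 7060 genes (52.8%) by the test, and 1857 genes (13.9%) at least 2-fold. Of these 1857, 1620 were called within 1.5-fold between largazole and SAHA, or 87.2%, beside 93.8% over all genes, and 1826 had an interval within 2-fold. None was called different by limma. At an unadjusted p under 0.05, largazole was higher in 100 and lower in 93 of the 826 genes FK228 raised at least 2-fold. It was higher in 149 and lower in 18 of the 1031 genes FK228 lowered at least 2-fold. Over all 13381 genes tested, these counts were 903 higher and 469 lower.

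The 826 genes that FK228 raised at least 2-fold had a median rise above vehicle of 1.11 log2 units with largazole and 1.13 with SAHA, against 1.34 with FK228. Largazole lay above SAHA in 368 of them (44.6%), and the median difference was -0.029. The 1031 genes that FK228 lowered at least 2-fold stood at a median of -1.09 from vehicle with largazole and -1.19 with SAHA, against -1.42 with FK228. Here largazole lay above SAHA in 751 genes (72.8%), beside 55.2% of all genes tested, with a median difference of 0.094 beside 0.017 over all genes. On these arrays, the SAHA levels thus lay a little farther below vehicle in the median of the lowered genes. The 4 pairs of arrays gave medians of 0.075 to 0.103, beside 0.0027 to 0.032 over all genes tested. These pairs share 2 largazole and 2 SAHA arrays, and the genes share all of them. Neither pairs nor genes are therefore independent replicates. Among the 204 genes that FK228 lowered at least 4-fold, largazole was the higher in 168 (82.4%), with a median difference of 0.14, and among the 115 raised at least 4-fold in 70 (60.9%), with a median of 0.053.

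**Figure D2:**
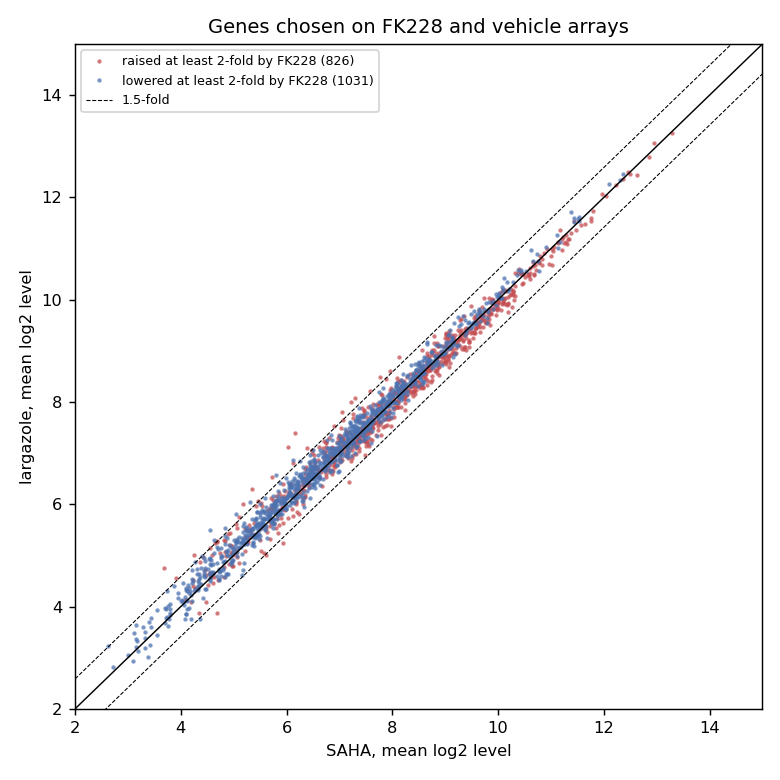
Mean log2 level with largazole against mean log2 level with SAHA for 826 genes raised and 1031 genes lowered at least 2-fold by FK228 against vehicle, 1 point per gene, each mean over 2 arrays. The points follow the line of equal levels, and the dashed lines mark a 1.5-fold difference of the means. By the pair of one-sided tests, 1620 of the 1857 genes were called within 1.5-fold. A point inside the lines is not by itself such a call.

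Among the 10 genes that FK228 raised most, 5 were called within 1.5-fold between largazole and SAHA. DHRS2, a short-chain dehydrogenase, was at 12.56 and 12.45 with largazole, against 12.49 and 12.42 with SAHA and 7.59 on average with vehicle. Its difference was 0.047 log2 units with an interval of -0.19 to 0.29, on a rise of 4.92 with largazole and 4.87 with SAHA. HEY1, a Notch-induced repressor, was at 8.60 and 8.61 with largazole, against 8.49 and 8.65 with SAHA and 5.04 with vehicle. In both genes the largazole and SAHA arrays overlapped. NEDD9, a scaffold of focal adhesions, differed by 0.11 (-0.25 to 0.47), TNFRSF19, a receptor of the tumour necrosis factor family, by 0.093 (-0.16 to 0.34), and PMEPA1, a TGF-beta-induced membrane gene, by 0.11 (-0.23 to 0.45).

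The other 5 of those genes were not called within the bound, and in each the largazole arrays lay above the SAHA arrays. SYT11, given above, was the most different. IGFBP3, which binds insulin-like growth factors, was at 7.16 and 7.04 with largazole, against 6.28 and 6.50 with SAHA and 3.36 with vehicle, a difference of 0.71 (0.35 to 1.06). CRISPLD2, a secreted protein gene, differed by 0.45 (0.22 to 0.68). ENPP2, which encodes the lysophosphatidic acid-producing enzyme autotaxin, differed by 0.36 (0.011 to 0.71), and SNAI2, a repressor of epithelial genes, by 0.31 (-0.07 to 0.70). As a mean over all its probe sets, CRISPLD2 differed by 0.27.

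Among the 10 genes that FK228 lowered most, 4 were called within 1.5-fold. PCDH7, a protocadherin, was at 6.77 and 6.94 with largazole, against 6.93 and 6.55 with SAHA and 10.98 with vehicle, so the arrays overlapped. ITPRIPL2 differed by 0.15 (-0.08 to 0.37) and FAM83B, a gene of growth factor signalling, by 0.11 (-0.14 to 0.36). NRIP1, a corepressor of nuclear receptors, was the one gene of the 10 with the lower value with largazole, at 6.01 and 6.11, against 6.36 and 6.28 with SAHA, a difference of -0.26 (-0.55 to 0.04).

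The other 6 were higher with largazole, though none was called different. HMGA2, an architectural chromatin protein, was at 6.01 and 5.60 with largazole, against 4.91 and 5.16 with SAHA and 10.06 with vehicle. CYP24A1, which inactivates vitamin D, was at 6.52 and 6.60 with largazole, against 5.66 and 5.92 with SAHA and 9.37 with vehicle. Their differences were 0.77 (0.42 to 1.12) and 0.77 (0.45 to 1.09), with the SAHA arrays nearer to FK228, whose means were 4.10 and 4.51. EREG, a ligand of the epidermal growth factor receptor, differed by 0.51 (0.03 to 1.00), EHF, an epithelial ETS factor, by 0.50 (0.25 to 0.75) and MKX, a homeobox gene, by 0.49 (0.17 to 0.80). PDE4B was the sixth. The SAHA level of EHF and both levels of MKX lay under 4.49, so their differences rest on dim signal. For HMGA2 the difference depended on the probe set: it was 0.31 as the mean of its 3 probe sets and 0.012 without _x_at and _s_at probe sets, against 0.77 for the one used. As means over all probe sets, EREG differed by 0.28 and MKX by 0.24.

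**Figure D3:**
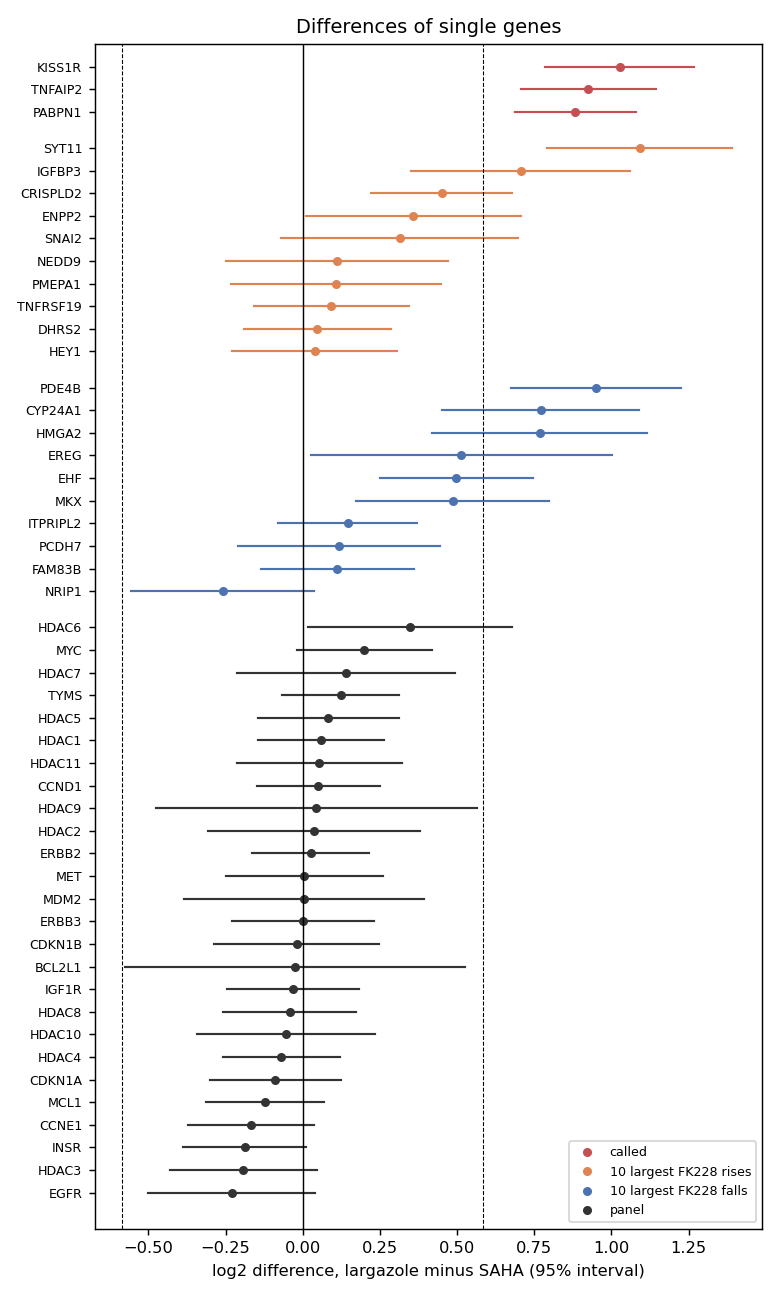
Difference of largazole minus SAHA in log2 units with its 95% interval for the 3 genes called different, the 10 genes FK228 raised most, the 10 it lowered most and 26 genes of deacetylation, growth and survival, with dashed lines at 1.5-fold. Of the 26, 25 were called within 1.5-fold, and the interval of HDAC6 crosses that line.

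Of the 11 HDAC genes, which encode the drug targets, 10 were called within 1.5-fold, or 90.9%, near the 93.8% of all genes. HDAC1, a catalytic subunit of class I corepressor complexes, was at 12.15 and 12.07 with largazole, against 12.07 and 12.03 with SAHA. HDAC2, its close paralogue, differed by 0.036 (-0.31 to 0.38), and HDAC3, the enzyme of the NCoR complex, by -0.19 (-0.43 to 0.05). HDAC6, the cytoplasmic tubulin deacetylase, was the exception, at 7.60 and 7.68 with largazole, against 7.12 and 7.47 with SAHA and 7.56 with vehicle. Its interval of 0.02 to 0.68 allows a difference of up to 1.60-fold, and its adjusted p for lying within 1.5-fold was 0.0726. The other HDAC genes had differences from -0.07 for HDAC4 to 0.14 for HDAC7.

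Cell cycle and survival genes were likewise close. CDKN1A, which encodes the kinase inhibitor p21, was at 10.62 and 10.79 with largazole, against 10.73 and 10.85 with SAHA and 9.84 with vehicle. The arrays overlapped, and the difference of -0.089 (-0.30 to 0.12) stood beside rises of 0.86 with largazole and 0.95 with SAHA. CDKN1B, which encodes p27, differed by -0.020 (-0.29 to 0.25), CCND1, cyclin D1, by 0.050 (-0.15 to 0.25) and CCNE1, cyclin E1, by -0.17 (-0.37 to 0.04). MYC, a growth-promoting transcription factor, was at 10.55 and 10.62 with largazole, against 10.38 and 10.39 with SAHA and 10.90 with vehicle. Its difference of 0.20 (-0.02 to 0.42) was called within 1.5-fold, although the arrays did not overlap. TYMS, thymidylate synthase, differed by 0.12 (-0.07 to 0.31). MCL1, an anti-apoptotic BCL2 family member, differed by -0.12 (-0.31 to 0.07), BCL2L1, which encodes BCL-xL, by -0.025 (-0.58 to 0.53), and MDM2, the ligase that restrains p53, by 0.0038 (-0.39 to 0.39).

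Receptor genes were close as well. MET, the hepatocyte growth factor receptor, was at 10.20 on both largazole arrays, against 10.29 and 10.11 with SAHA and 11.54 with vehicle. ERBB3, a receptor of neuregulins, was at 7.92 and 7.73, against 7.82 and 7.83 with SAHA and 8.82 with vehicle. ERBB2 was at 7.35 and 7.43, against 7.35 and 7.38 with SAHA and 8.58 with vehicle. In all 3 the arrays of the treatments overlapped, and both treatments stood below vehicle. EGFR, the epidermal growth factor receptor, differed by -0.23 (-0.50 to 0.04), INSR, the insulin receptor, by -0.19 (-0.39 to 0.01) and IGF1R, the receptor of insulin-like growth factors, by -0.031 (-0.25 to 0.18).

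Gene families were described by 49 lists with 1024 distinct members tested. Of these members 954, or 93.2%, were called within 1.5-fold, near the 93.8% over all genes, and 1 was called different, TNFAIP2 of the NF-kappaB list. At an unadjusted p under 0.05, 95 members were higher and 33 lower, beside 903 and 469 of all 13381 genes tested. For each list, the mean level per array was compared between the treatments in a linear model of the 8 arrays, and the farther end of its 95% interval bounds the difference of the family. The bound lay within 1.5-fold for all 49 lists and within ±0.32 log2 units for 47. It ranged from 1.02-fold for actin and microtubule regulators to 1.27-fold for fibroblast and endothelial markers. The median of a list's differences lay between -0.10 and 0.21 log2 units, beside 0.017 for all genes. Each count of members within 1.5-fold below describes its list beside that 93.8%, with no test between lists. Counts of members at an unadjusted p below likewise stand beside the 903 higher and 469 lower of all 13381 genes, with no test. The interval of the mean difference included 0 for 35 of the 49 lists and excluded it for the others. Over all genes tested the mean difference was 0.028 (0.00065 to 0.055), which also excludes 0. The intervals are not adjusted over the lists, and genes of a list share their arrays.

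**Figure D4:**
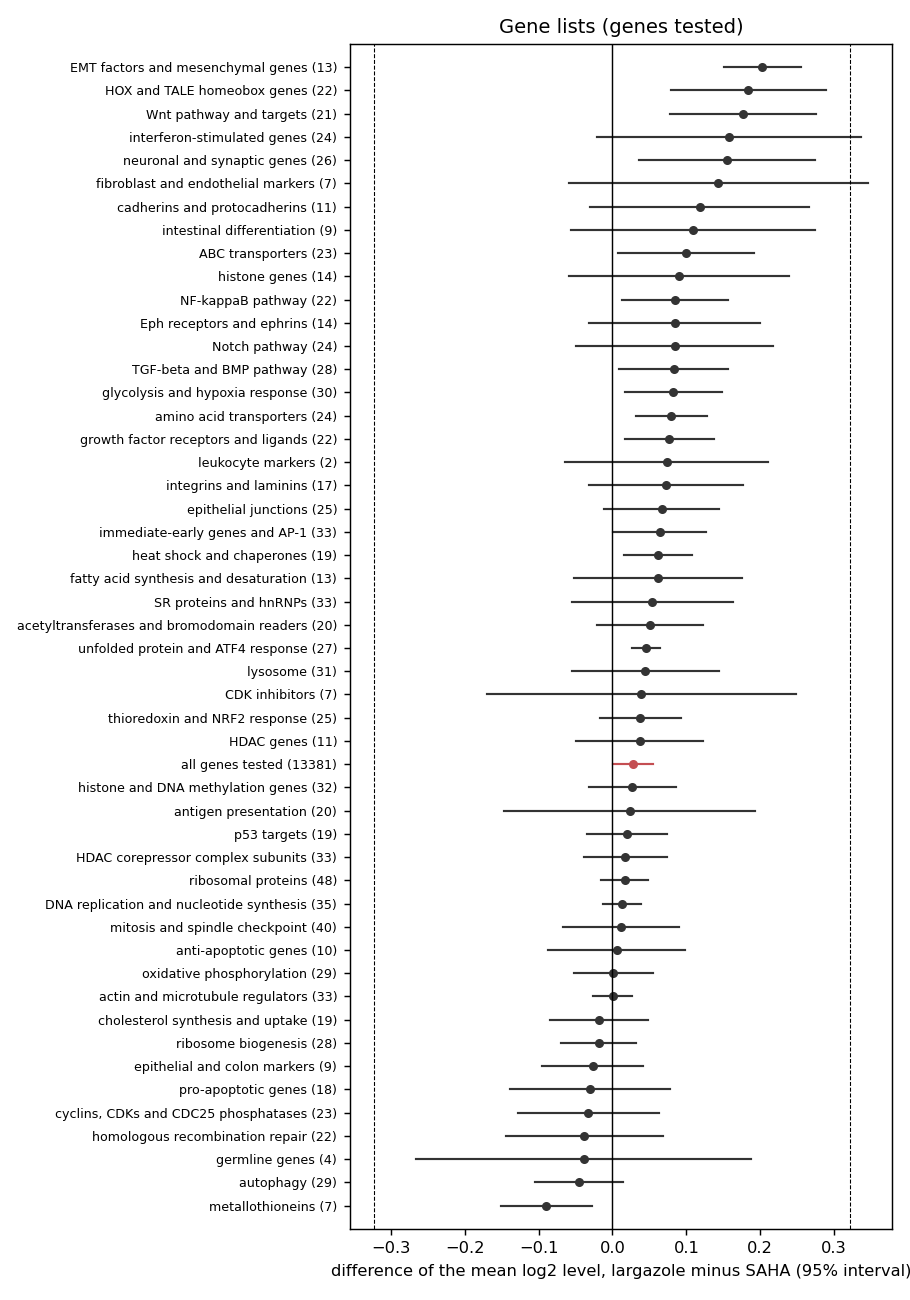
Difference of the mean log2 level of each gene list, largazole minus SAHA, with its 95% interval over 8 arrays. The number of genes tested stands in brackets, all genes are in red, and the dashed lines mark ±0.32 log2 units. The intervals of 47 of 49 lists lie inside those lines.

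Chromatin regulators were close between the treatments. All 32 genes of histone and DNA methylation were called within 1.5-fold, with a family bound of 1.06-fold. Of 33 subunits of HDAC corepressor complexes, 31 were called within it, with a bound of 1.05-fold. SIN3A, the scaffold of a corepressor complex, was at 8.07 and 8.02 with largazole, against 8.30 and 8.48 with SAHA. RCOR2, of the CoREST complex, was at 6.28 and 6.56, against 6.01 and 6.05 with SAHA. The members at the ends of this list therefore lay on opposite sides, and its median of -0.011 changed sign with the scaling of the arrays. Acetyltransferases and bromodomain readers had 19 of 20 members within the bound and a family bound of 1.09-fold.

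Of 14 histone genes, 11 were called within 1.5-fold (78.6%, beside 93.8% over all genes, a difference that was not tested), with a family bound of 1.18-fold. Against vehicle their median change was 0.74 with largazole and 0.63 with SAHA. H2BC5, a histone H2B gene, was at 9.87 on both largazole arrays, against 9.36 and 9.59 with SAHA and 7.90 with vehicle. H2BC4, another of that family, was at 5.42 and 5.76, against 5.90 and 5.82 with SAHA and 4.13 with vehicle. The largazole arrays were thus the higher in H2BC5 and the lower in H2BC4, with both treatments above vehicle.

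Proliferation genes were close as well. All 40 mitosis and spindle checkpoint genes, all 35 DNA replication and nucleotide synthesis genes and all 23 cyclins, CDKs and CDC25 phosphatases were called within 1.5-fold. Their family bounds were 1.06-, 1.03- and 1.09-fold. FOXM1, a transcription factor of mitotic genes, was the member of the mitosis list with the greatest value, at 8.76 and 8.79 with largazole, against 8.46 and 8.52 with SAHA and 9.56 with vehicle. CDC25A, a phosphatase that activates CDKs, was at 8.05 and 8.0, against 8.19 and 8.39 with SAHA and 8.33 with vehicle. The medians of the mitosis and cyclin lists, -0.0029 and -0.014, changed sign with scaling. Homologous recombination genes had 20 of 22 members within 1.5-fold. FANCL, a Fanconi anaemia ubiquitin ligase, was at 7.99 and 7.79 with largazole, against 7.38 and 7.36 with SAHA and 8.78 with vehicle, while FANCB of the same pathway differed by -0.40 (-0.76 to -0.04) and, as a mean over its probe sets, by -0.63.

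The p53 and apoptosis lists were as close. All 19 p53 targets, all 18 pro-apoptotic and all 10 anti-apoptotic genes were called within 1.5-fold, with family bounds of 1.05-, 1.10- and 1.07-fold. CASP9, the initiator caspase of the mitochondrial pathway, was at 8.30 and 8.39 with largazole, against 8.57 and 8.66 with SAHA. BIK, a BH3-only death gene, was at 9.84 and 9.94, against 9.60 and 9.72. DDB2, a p53-induced repair gene, was at 8.55 and 8.48, against 8.19 and 8.35. These members did not overlap between the treatments, yet each had an interval that lay inside 1.5-fold.

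Of the signalling families, the Wnt list had the highest median after the mesenchymal list. Its median was 0.17 log2 units and its mean difference 0.18 (0.078 to 0.28), a family bound of 1.21-fold, and 17 of 21 members were called within 1.5-fold. None was called different by limma, and 7 were higher and 0 lower at an unadjusted p under 0.05. AXIN2, a feedback inhibitor and target of Wnt signalling, was at 9.07 on both largazole arrays, against 8.37 and 8.35 with SAHA, 7.73 on average with FK228 and 8.40 with vehicle. SP5, a Wnt-induced transcription factor, was at 5.99 and 6.07, against 5.40 and 5.55 with SAHA and 5.15 with vehicle. In both genes the largazole arrays lay above all SAHA and vehicle arrays. As a mean over its probe sets, AXIN2 differed by 0.50, against 0.71 on the probe set used. At the other end, LRP6, a Wnt coreceptor, differed by -0.12 (-0.35 to 0.11) and CD44, a cell surface receptor for hyaluronan, by -0.08 (-0.35 to 0.20).

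The TGF-beta and BMP list had 26 of 28 members within the bound and a family bound of 1.11-fold. SMAD7, which inhibits TGF-beta receptors, was at 4.90 and 4.86 with largazole, against 4.31 and 4.22 with SAHA and 5.46 with vehicle. BMP4, a ligand, was at 9.02 and 9.24, against 8.50 and 8.82 with SAHA and 9.95 with vehicle. Both lay below vehicle with either compound and were nearer to it with largazole, and the SAHA level of SMAD7 was dim. In the Notch list 20 of 24 were within the bound. NRARP, a feedback inhibitor of Notch, was at 9.27 and 9.31, against 8.77 and 8.82 with SAHA and 8.03 with vehicle, and MAML2, a coactivator of Notch, was at 4.46 and 4.96, against 5.06 and 5.27 with SAHA.

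The NF-kappaB list held TNFAIP2 and had 17 of 22 members within 1.5-fold. REL, a subunit of the factor, was at 6.86 and 6.78 with largazole, against 7.29 and 7.28 with SAHA and 6.47 with vehicle. NFKB2, another subunit gene, was at 5.32 and 5.46, against 5.70 and 5.72 with SAHA. CXCL3, a chemokine, was at 5.0 and 5.19, against 4.57 and 4.79 with SAHA. On the probe sets used, REL and NFKB2 therefore lay lower with largazole and CXCL3 and TNFAIP2 higher, and the family bound was 1.11-fold. As means over all probe sets, REL differed by -0.23 and NFKB2 by -0.098. The interferon-stimulated list had 20 of 24 members within the bound and a wider family bound of 1.26-fold. IRF7, a transcription factor of interferon genes, was at 8.53 and 8.69 with largazole, against 7.83 and 8.07 with SAHA and 5.91 with vehicle, and ISG15, a ubiquitin-like modifier, was at 11.54 on both largazole arrays, against 11.61 and 11.69 with SAHA.

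The mesenchymal genes stood highest among the lists. Over 13 members tested, the mean level was 7.01 and 7.02 on the largazole arrays, against 6.81 and 6.82 on the SAHA arrays, a difference of 0.20 (0.15 to 0.26) and a bound of 1.19-fold. Of them 10 were called within 1.5-fold, 0 were called different by limma, and 4 were higher at an unadjusted p under 0.05. COL1A1, a fibrillar collagen chain, was at 8.56 and 8.24 with largazole, against 7.97 and 7.73 with SAHA and 7.13 with vehicle, and its difference of 0.55 was 0.23 as a mean over its probe sets. TWIST1, a transcription factor of mesenchymal cells, was at 4.70 and 4.76, against dim levels of 4.47 and 4.13 with SAHA and 5.43 with vehicle. VIM, the mesenchymal intermediate filament vimentin, was at 6.58 and 6.56, against 6.61 and 6.57 with SAHA, a difference of -0.02 (-0.20 to 0.16). The list was thus not uniform, since COL1A1 lay above vehicle and TWIST1 below it, while the VIM arrays of the treatments overlapped.

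Epithelial junction genes had 23 of 25 members within 1.5-fold and a family bound of 1.11-fold. CLDN1, a tight junction claudin, was at 5.37 and 5.19 with largazole, against 4.51 and 4.84 with SAHA and 3.95 with vehicle. CLDN7, another claudin, was at 9.76 and 9.86, against 10.07 and 10.09 with SAHA, so claudins lay on both sides. CDH1, E-cadherin, differed by -0.04 (-0.29 to 0.20). CELSR3, an atypical cadherin, differed by 0.47 (0.23 to 0.71) and, as a mean over its probe sets, by 0.29, and the cadherin list had 9 of 11 members within the bound. Integrins and laminins had 16 of 17 within it, and all 33 actin and microtubule regulators were within it.

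HOX and TALE homeobox genes, which set positional identity, stood nearer to vehicle with largazole. Their median change from vehicle was -0.71 with largazole and -0.91 with SAHA, and the mean difference between the treatments was 0.18 (0.079 to 0.29), a bound of 1.22-fold. Of 22 members 17 were called within 1.5-fold, 0 were called different by limma, and 6 were higher and 0 lower at an unadjusted p under 0.05. HOXC6 was at 6.60 and 6.64 with largazole, against 6.06 and 6.31 with SAHA and 8.72 with vehicle. HOXC4 ran the other way, at 5.32 and 5.21, against 5.34 and 5.87 with SAHA.

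Neuronal and synaptic genes had 21 of 26 members within 1.5-fold and a family bound of 1.21-fold. SYT11 was the highest, and STMN2, a regulator of neuronal microtubules, was next at 4.24 and 4.85 with largazole, against 3.68 and 4.15 with SAHA. The STMN2 interval of -0.18 to 1.45 was the widest in the list and bounds the difference only at 2.74-fold, with the SAHA level dim. CRMP1, of axon guidance, was lowest at -0.13 (-0.49 to 0.23). Intestinal differentiation genes had 7 of 9 within the bound, with KRT20, an intestinal keratin, at 4.55 and 4.60, against 3.91 and 4.01 with SAHA (difference 0.62, -0.09 to 1.33, against a dim SAHA level). All 4 germline genes that passed the filter on low values, of 20 listed, were within it.

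Metallothioneins, which bind zinc and copper, were the list with the lowest median. All 7 were called within 1.5-fold, with a median of -0.10, and their mean level was 12.08 and 12.10 with largazole, against 12.20 and 12.16 with SAHA. MT1F was at 12.99 and 12.98, against 13.13 and 13.12 with SAHA and 12.49 with vehicle, and MT1H at 12.56 and 12.59, against 12.72 and 12.70. The difference was small, with a family bound of 1.11-fold, and metallothionein probe sets may share sequence.

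Metabolic lists were close. All 29 genes of the oxidative phosphorylation list and all 19 cholesterol genes were called within 1.5-fold, with bounds of 1.04- and 1.06-fold, although cholesterol genes had a median change from vehicle of 0.58 with largazole and 0.59 with SAHA. Respiratory chain genes outside that list, picked after their values were seen, were higher with largazole. COX1 averaged 12.86, against 12.28 with SAHA and 12.77 with vehicle, a difference of 0.58 (0.40 to 0.76). ND4 differed by 0.49 and ND6 by 0.47, and none of these was called different. Of the cholesterol list, the isomerase gene IDI1 was at 11.54 on both largazole arrays, against 11.69 and 11.82 with SAHA and 10.30 with vehicle. Glycolysis and hypoxia genes had 28 of 30 within the bound. ANKRD37, a hypoxia-induced gene, was at 8.46 and 8.53, against 7.77 and 7.76 with SAHA and 7.48 with vehicle. ADM, which encodes the peptide adrenomedullin, was at 9.67 and 9.66, against 9.24 on both SAHA arrays and 10.28 with vehicle. Fatty acid genes had 11 of 13 within the bound, amino acid transporters 22 of 24 and ABC transporters 22 of 23. SLC7A11, the cystine transporter, was at 6.61 and 6.66 with largazole, against 6.93 and 7.02 with SAHA and 8.84 with vehicle. All 31 lysosomal genes and 28 of 29 autophagy genes were within 1.5-fold.

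Stress response genes were mostly within the bound. Of the heat shock and chaperone genes 18 of 19 were within 1.5-fold. HSPA2, a heat shock protein of the HSP70 family, was at 7.72 and 7.89 with largazole, against 7.11 and 7.0 with SAHA and 6.11 with vehicle, a difference of 0.75 (0.53 to 0.97) that was not called (limma adjusted p = 0.0571). DNAJB1, a partner of HSP70, was at 12.41 and 12.47, against 12.58 and 12.69 with SAHA. Unfolded protein and ATF4 response genes had 25 of 27 within the bound. DDIT4, an inhibitor of mTORC1, was at 10.12 and 10.10, against 9.61 and 9.80 with SAHA, and HSP90B1, an endoplasmic reticulum chaperone, was at 10.75 and 10.80, against 11.38 and 10.91. Thioredoxin and NRF2 genes had 24 of 25 within it and immediate-early and AP-1 genes 30 of 33.

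The ribosomal and RNA-binding lists were close on the probe sets used. All 48 ribosomal protein genes, all 28 ribosome biogenesis genes and all 33 SR protein and hnRNP genes were called within 1.5-fold. The family bounds were 1.03-, 1.05- and 1.12-fold. Some members depended on the probe set. Without _x_at and _s_at probe sets, HNRNPA1 differed by 0.94, SRSF3 by 0.56 and RPS24 by 0.59, against 0.36, -0.096 and 0.082 as reported. RRP12 moved the other way, from 0.14 to -0.026. Antigen presentation genes had 18 of 20 within the bound, growth factor receptors and ligands 19 of 22 and Eph receptors and ephrins 13 of 14. TAP2, a peptide transporter, was at 7.49 and 7.58 with largazole, against 7.77 and 7.90 with SAHA. Its difference of -0.31 turned to 0.052 without _x_at and _s_at probe sets. EPHB3, a Wnt-regulated Eph receptor, was at 8.35 and 8.47, against 8.08 and 8.14 with SAHA and 6.75 with vehicle. The CDK inhibitor list had 6 of 7 within the bound, the exception being CDKN2B, which encodes p15, at 6.97 and 6.42 with largazole, against 6.74 and 6.41 with SAHA, whose interval of -0.68 to 0.91 was too wide for a call.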

How the data were processed

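Total RNA of HCT116 cells was hybridised to Affymetrix human arrays of the U133 Plus 2.0 type, 2 per treatment, 8 in all. The values are log2 levels per probe set in the table deposited by the authors. Per the submitters' processing notes, the tools were affy, RMA and limma, with no versions or roles stated, so the background correction and normalization are not given in the sources used here. Of 54613 probe sets, 41091 carried 1 gene symbol, 1801 several and 11721 none, and 41037 of those with 1 symbol matched RefSeq.

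A probe set was tested where its second-highest array reached the median of all values. limma 3.58.1 in R 4.3.3 was fitted to all 8 arrays with 1 coefficient per group and no covariate, leaving 4 residual degrees of freedom and adding 3.69 from the prior. The p-values of largazole minus SAHA were adjusted by Benjamini-Hochberg over 28985 probe sets. Likeness was tested by a pair of one-sided moderated tests against 1.5-fold. List means were compared by a linear model over the 8 arrays. The fit was tested on simulated data with known changes.

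Named genes were up to 12 called genes at each end whose largazole arrays both lay outside the range of the SAHA arrays. They also took in the 10 largest FK228 rises and falls, and up to 5 called genes each way with vehicle between. A panel of 26 genes and, for each list, no more than 2 members at either end were added. The panel and lists were chosen with earlier results of these data known. Alternatives were another filter, prior, scaling, probe set choice, array weighting, replicate block, bound or array set. Probe sets with several symbols are given no gene name.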

Additional observations from a re-analysis of the deposited data

Results flagged for a closer look

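The difference between largazole and SAHA passed the limma test of the difference itself in 3 genes, with 2 arrays per treatment. KISS1R was 1.03 log2 units higher with largazole, TNFAIP2 0.93 higher and PABPN1 0.88 higher. That both largazole arrays lay above both SAHA arrays in each adds no support, since the rule for naming called genes required arrays without overlap. Arrays of the treatments did not overlap for 43.1% of all genes tested. With the replicate number as a block, or without any 1 array, 0 genes were called. Each gene rests on 1 probe set, and the share called, 0.0224%, is small beside the 13381 genes tested. The doses of the treatments differ, and the part of dose in these differences was not tested.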

How the results depend on the processing

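Under 18 alternatives, the count of genes called different moved from 3 to 0 without the filter, 36 with a stricter filter, 57 with an intensity trend and robust prior, 8 with array weights, 8 with equal ribosomal protein medians, 6 with a further quantile normalization, 7 without _x_at and _s_at probe sets, 21 with the mean of all probe sets and 0 with the 4 largazole and SAHA arrays alone. Probe sets called moved from 11 to 6, 108, 156, 25, 21 and 20 in the first 6 of these and to 0 with the 4 arrays. Lower with largazole were 7 of the 36 genes called with the stricter filter, 12 of the 57 with the trend and 2 of the 21 with the mean. At an adjusted p under 0.10, chosen after seeing the data, 30 genes and 91 probe sets were called. Of FK228-responsive genes, 0 were called as reported, 19 with the stricter filter, 30 with the trend, 5 with array weights, 5 with ribosomal scaling, 3 with quantile normalization, 3 without _x_at and _s_at probe sets and 10 with the mean. With the replicate number as a block, 0 genes and 5 probe sets were called. Deviations of arrays of 1 number correlated at 0.31 between largazole and SAHA and at 0.15 to 0.31 over the 6 pairs of groups. The labels name no shared culture or day, and each comparison has 2 pairs, so the pairing is not established. Leaving out 1 array gave 0 genes and 0 to 3 probe sets, with the lone array of its group assumed to vary like the other groups. KISS1R was called in 7 of 18 alternatives and TNFAIP2 and PABPN1 in 6 of 17, with adjusted p up to 0.302, 0.338 and 0.338. The cause of these movements was not tested.

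The bound was steadier. Genes called within 1.5-fold made up 84.0% to 97.8% of those tested, the lowest without largazole replicate 1, and at ±0.32 log2 units 0 were called. No result changed sign past the threshold. Dim probe sets and 2 arrays per group limit the bound.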

Other observations

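Over the alternatives, 66 genes were called different in at least 1, and 11 of the 18 called none. DKK4 and SYT11, which missed the threshold as reported, were called in 7, as often as KISS1R. NGFR, which encodes a neurotrophin receptor and was picked after its values were seen, was also called in 7. It was at 8.04 and 8.11 with largazole, against 7.21 and 7.37 with SAHA, 7.60 on average with FK228 and 5.43 with vehicle. Of the 52 genes with intervals beyond ±0.32 log2 units, 29 were changed at least 2-fold by FK228, beside 13.9% of all genes tested.

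Among these 52, some more genes seen to stand out lay well above vehicle with both compounds. ETV7, an ETS family factor, was at 6.44 and 6.15 with largazole, against 5.48 and 5.23 with SAHA and 2.90 with vehicle. ACSBG1, a fatty acyl-CoA synthetase, was at 6.51 and 6.56 with largazole, against 5.70 and 5.75 with SAHA and 3.45 with vehicle. TEX19, a germline gene, was at 8.0 and 8.01 with largazole, against 7.18 and 7.25 with SAHA and 6.34 with vehicle. Others lay below vehicle with both. LIF, a cytokine, was at 6.25 and 5.85 with largazole, against 5.30 and 5.32 with SAHA and 8.17 with vehicle. FGF19, an intestinal hormone of the fibroblast growth factor family, was at 6.87 and 6.85, against 5.89 and 6.36 with SAHA and 8.07 with vehicle. PLAU, the urokinase protease, was at 5.14 and 5.47, against 4.67 and 4.59 with SAHA and 7.64 with vehicle. None of these was called different by limma. As means over all probe sets, ETV7 differed by 0.55 and PLAU by 0.36, against 0.94 and 0.68 on the probe sets used.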
